A study of Mus musculus with 70 samples.

Results

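The lysosome genes are 36 genes, named by their symbols, out of 21863 entries in the deposited FPKM table (fragments scaled for gene length and library size). Each symbol was found. By the role of their products they comprise 11 proteases, 7 glycosidases, 7 proteins that handle lipids, 7 membrane proteins, 3 proton pump subunits and 1 transcription factor, Tfeb.

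RNA was sequenced in bulk from 70 mouse libraries in 26 groups, of which 18 held 3 libraries and 8 held 2. The mice, labelled C57BL/6 and male, carried a doxycycline-inducible, constitutively active kinase: caMEK1, a frog MEK1 that switches on ERK, or caMKK6, a human MKK6 that switches on p38. The series calls the resulting states oncogene-induced senescence for caMEK1 and stress-induced senescence for caMKK6. Embryonic fibroblasts (MEFs) served as the culture counterpart of hepatocytes and colon epithelial cells sorted from 2-coloured chimeric mice, where mCherry-positive cells express the kinase and GFP-positive cells are their neighbours.

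MEFs came from mid-gestation embryos without head and viscera. They received 2 µg/mL doxycycline for 2, 4 or 7 days, with 3 libraries per day and genotype, and 3 libraries per genotype were made without doxycycline at day 2. Day 4 and day 7 therefore have no untreated partner, so the drug and the time in culture cannot be told apart there, and only MEFs without doxycycline were passaged. Mice drank doxycycline in water sweetened with sucrose (10 mg/mL). The dose was 0.2 mg/mL in caMEK1 mice, while caMKK6 mice got 2 mg/mL, as did controls, so kinase and dose cannot be told apart. Mice on doxycycline were taken at day 7, and both colours were sequenced from each. Liver had 3 caMEK1, 2 caMKK6 and 2 control mice on doxycycline, and colon had 2, 3 and 2. Each genotype also had 3 untreated mice per tissue, of which GFP cells were sequenced. What the control mice carry, and the promoter that drives the kinases, are not given in the sources used here. Hepatocytes were obtained by collagenase perfusion and low-speed spins, colon cells from detached crypts, and dead cells were gated out in the sort. The labels do not say whether the 3 MEF libraries of a group were separate cultures, so p-values measure the spread between libraries, which may be technical.

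Depth, recovered from the steps in the values, was 10888915 to 17763531 reads in MEF libraries, 9267318 to 14534256 in liver and 6671204 to 17396973 in colon. Each library held markers of its labelled cell type. All 6 hepatocyte markers reached 1 FPKM in every liver library, all 7 colon epithelial markers in every colon library, and 6 or 7 of 7 fibroblast markers in every MEF library. Markers of other cells were present too. All 5 endothelial and 9 to 15 of 15 macrophage markers reached 1 FPKM in every liver library. They summed to 20.1 to 173.4 and 35.2 to 845.1 FPKM, against 28680 to 102600 FPKM for hepatocyte markers. Of 6 hepatocyte markers, 2 to 4 reached 1 FPKM in each colon library, and of 7 colon epithelial markers 2 or 3 in each MEF library. The transgenes mostly followed the labels. In caMEK1 MEFs the MEK1 transgene went from 1.94 to 4.04 FPKM without doxycycline to 1008 to 1169 FPKM at day 2, and in caMKK6 MEFs the MKK6 transgene went from 0.407 to 3.17 FPKM to 808 to 1209 FPKM. Among caMKK6 MEFs, however, 5 libraries also held the MEK1 transgene at more than 5 FPKM: untreated replicates 2 and 3, day 2 replicates 2 and 3, and day 4 replicate 2. In liver, the libraries labelled caMEK1 mCherry held mCherry at only 4.24 to 12.2 FPKM and MEK1 at 5.55 to 14.1 FPKM, whereas control mCherry libraries held mCherry at 3985 to 4727 FPKM. Control GFP liver cells on doxycycline also held mCherry, at 678 to 750 FPKM. GFP cells on doxycycline held some kinase transcript as well. In caMKK6 mice MKK6 was at 1.51 to 30.9 FPKM in liver GFP and 216 to 1211 FPKM in liver mCherry cells. In colon it was at 8.5 to 116 FPKM in GFP and 1214 to 2648 FPKM in mCherry cells. In caMEK1 mice MEK1 was at 0.133 to 0.238 FPKM in liver GFP cells. In colon it was at 12.28 to 28.75 FPKM in GFP and 234.7 to 287.5 FPKM in mCherry cells. Directions drawn from the libraries labelled caMEK1 mCherry in liver rest on that label.

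The lysosome is the acidic compartment in which cells digest proteins, sugars, lipids and worn-out organelles. A proton pump in its membrane, the V-ATPase, keeps it acidic, cathepsins cut proteins, glycosidases trim sugar chains, and NPC1 and NPC2 move cholesterol out. TFEB and its relatives switch on many lysosome genes through E-box words in their promoters, and an enlarged lysosomal compartment is a long-known trait of senescent cells, where the β-galactosidase encoded by Glb1 underlies the widely used staining.

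Promoters were looked at because most of these genes moved together in MEFs. RefSeq windows of 300 bases, from 250 bases before to 50 after a gene's start, were at hand for 31 of the 36 genes (GRCm38.p6). The palindromic E-box CACGTG stood in the windows of 9 of them: Lamp1, Mcoln1, Ctsa, Ctsd, Ctsf, Ctsl, Gaa, Glb1 and Atp6v0d1. Of all 32851 mouse windows, 7.15% held it. The longer word TCACGTG, which contains CACGTG, was found on either strand for 7 lysosome genes and in 3.765% of all windows. A still longer palindrome around CACGTG, which extends TCACGTG at both ends, was searched for too. It was found for 0 of the 31 lysosome genes with a window and in 0.326% of all windows. The related word TCATGTG was found for 5, Ctsa, Ctss, Ppt1, Scarb2 and Tpp1, and in 3.772% of all windows. The 100 bases before the start follow for 4 genes that rose in MEFs, with each CACGTG in capitals. They show the most crowded promoter, that of Lamp1, a calcium channel gene with a pair of E-boxes, a cathepsin and the β-galactosidase. They lie at chr8:13159061-13159160 on the plus strand (Lamp1), chr8:3500419-3500518 on the plus strand (Mcoln1), chr7:142387828-142387927 on the minus strand (Ctsd) and chr9:114400978-114401077 on the plus strand (Glb1), and each is written 5′ to 3′ on its gene's strand.
Lamp1: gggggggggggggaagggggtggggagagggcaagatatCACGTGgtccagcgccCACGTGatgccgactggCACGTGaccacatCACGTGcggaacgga
Mcoln1: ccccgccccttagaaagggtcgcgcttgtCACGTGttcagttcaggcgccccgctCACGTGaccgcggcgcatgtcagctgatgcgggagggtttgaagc
Ctsd: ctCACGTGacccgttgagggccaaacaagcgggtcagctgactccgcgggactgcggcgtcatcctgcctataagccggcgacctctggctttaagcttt
Glb1: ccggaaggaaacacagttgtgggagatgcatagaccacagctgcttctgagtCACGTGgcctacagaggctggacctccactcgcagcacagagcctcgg
Lamp1 has 4 copies in this stretch, Mcoln1 has 2, and Ctsd and Glb1 have 1 each. A matching word is a description of the letters and not a bound site.

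In MEFs, both kinases were followed by a broad rise of lysosome transcripts that built up over days. Of the 36 genes 35 were tested, and at day 7 of caMEK1 24 rose and none fell, while at day 7 of caMKK6 25 rose and none fell. Over all genes tested, 62.1% were called at day 7 of caMEK1 and 40.8% at day 7 of caMKK6, and those called up were 33.4% and 16.8% (down, 28.7% and 24%). The median log2 fold change of the lysosome genes was 0.60 under caMEK1 against 0.03 over all genes tested, and 0.54 under caMKK6 against −0.04. Calls rest on limma's test of log2(FPKM + 1), with a Benjamini-Hochberg adjusted p below 0.05 taken over all genes of the fit, and fold changes are on that scale, which understates the change of low genes. In bulk RNA a larger share of cells of a type and more RNA per cell cannot be told apart.

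The genes that rose at day 7 were largely shared. The MEF comparisons of the kinases use no library in common, and 22 genes rose under both, which is 22 of the 24 called for caMEK1 and 22 of the 25 called for caMKK6. Ctsh and Ppt1 were called under caMEK1 alone, and Ctsk, Ctsz and Smpd1 under caMKK6 alone. Asah1, Ctsc, Ctss, Fuca1, Gusb, Lipa, Man2b1 and Scarb2 were called under neither. All 9 genes with CACGTG in their window were among the 22, against 10 of the 21 tested genes with a window that lacks it. Among all tested genes with a window, 14.5% of those with CACGTG and 10.2% of those without rose under both kinases. No test was made of this. With the replicate number as a block within genotype, 27 genes rose and 2 fell at day 7 of caMEK1, the latter being Fuca1 (−0.15, limma adjusted p = 0.041) and Ctsc (−0.66, limma adjusted p = 0.00016).

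By role, the proton pump and the membrane proteins moved most uniformly. All 3 proton pump subunits and 6 of 7 membrane proteins rose at day 7 under each kinase. Among proteases 7 of 11 rose under caMEK1 and 8 of 11 under caMKK6, and among glycosidases and among lipid handlers 4 of 7 rose under each.

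**Figure D1:**
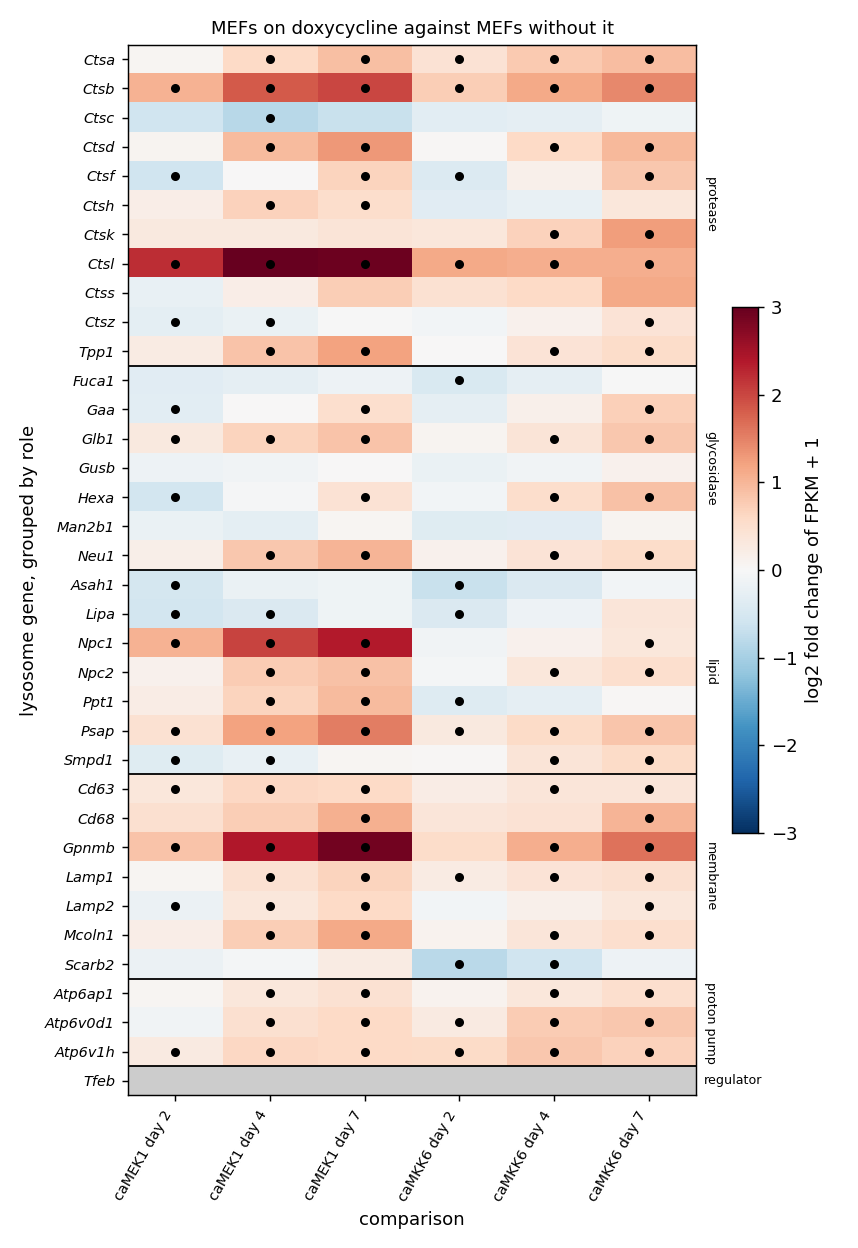
Log2 fold change of FPKM + 1 (colour) of the lysosome genes, grouped by role, in MEFs on doxycycline at days 2, 4 and 7 against untreated day 2 MEFs of that genotype; a dot marks a call at adjusted p below 0.05 and grey a gene not tested. Blue and red are mixed at day 2, and every dot at day 7 lies on red: 24 genes under caMEK1 and 25 under caMKK6.

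Cathepsin L, an endopeptidase that is also secreted, showed the largest rise under caMEK1. Ctsl stood at 100, 100 and 130 FPKM in untreated caMEK1 replicates 1, 2 and 3, at 443, 462 and 642 FPKM at day 2, at 791, 858 and 1141 FPKM at day 4 and at 788, 762 and 1004 FPKM at day 7. It had risen at day 2 by 2.21 on the log2 scale (SE 0.20) and stood 2.94 higher at day 7 (SE 0.20, limma adjusted p = 1.39e-10). In caMKK6 MEFs it went from 127, 116 and 124 FPKM to 259, 331 and 228 FPKM at day 2 and was at 264, 327 and 203 FPKM at day 7. All libraries on doxycycline lay above all untreated ones under both kinases, and under caMKK6 the level reached at day 2 was about that of day 7.

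Cathepsin B, a cysteine protease that takes part in lysosomal cell death, rose stepwise instead. Ctsb stood at 102, 97.9 and 119 FPKM without doxycycline in caMEK1 MEFs, at 214, 211 and 233 at day 2, at 381, 381 and 382 at day 4 and at 423, 423 and 430 at day 7, a log2 change of 2.00 (SE 0.08). In caMKK6 MEFs it went from 121, 103 and 115 FPKM over 207, 188 and 176 at day 2 and 254, 257 and 237 at day 4 to 309, 319 and 293 at day 7, a log2 change of 1.44 (SE 0.08). At each step the libraries of the later day lay above those of the earlier one.

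Cathepsin D, the main aspartic protease, followed later. Ctsd in caMEK1 MEFs was at 168, 170 and 226 FPKM without doxycycline and at 173, 188 and 235 FPKM at day 2, so that these groups overlapped, and it reached 406, 438 and 549 FPKM at day 7. The log2 change at day 7 was 1.30 (SE 0.15) under caMEK1 and 0.97 (SE 0.15) under caMKK6, where it went from 218, 181 and 201 FPKM to 423, 338 and 420 FPKM. Ctsa, a carboxypeptidase that also protects β-galactosidase and neuraminidase, went from 35.0, 35.9 and 37.7 FPKM to 67.4, 68.9 and 70.0 under caMEK1 and from 44.5, 36.2 and 37.5 FPKM to 73.3, 82.0 and 70.4 under caMKK6. Tpp1, a tripeptidase lost in a childhood storage disease, went from 21, 21.2 and 22.8 FPKM to 46.3, 54.6 and 54.2 under caMEK1. Day 7 and untreated libraries did not overlap for any of these 3 genes.

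Cathepsin K, the collagen-cutting protease of osteoclasts, was the protease with the clearest rise under caMKK6 alone. Ctsk stood at 69.0, 62.8 and 52.5 FPKM in untreated caMKK6 MEFs and at 170, 179 and 105 FPKM at day 7, a log2 change of 1.26 (SE 0.23, limma adjusted p = 0.000255). In caMEK1 MEFs it went from 32.6, 28.9 and 35.2 FPKM to 61.7, 41.9 and 29.1 FPKM, groups that overlapped, and was not called. The summed level of 4 other osteoclast markers was 0.313 to 1.63 FPKM over all MEF libraries, and 0 or 1 of the 4 reached 1 FPKM.

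Among lipid handlers, Npc1, the membrane protein that exports cholesterol, separated the kinases most. Npc1 stood at 3.63, 3.76 and 3.88 FPKM in untreated caMEK1 MEFs, at 8.57, 8.21 and 9.84 at day 2, at 18.0, 17.6 and 19.5 at day 4 and at 21.5, 25.0 and 24.4 at day 7 (log2 change 2.37, SE 0.07). In caMKK6 MEFs it stood at 5.82, 6.10 and 5.44 FPKM without doxycycline and at 7.05, 7.79 and 7.84 FPKM at day 7 (log2 change 0.34, SE 0.07). Day 7 lay above untreated in every library of both genotypes, and the caMEK1 rise was the larger. Psap, the precursor of the saposins that help enzymes reach lipids, went from 201, 222 and 230 FPKM to 572, 643 and 698 under caMEK1 and from 326, 291 and 256 FPKM to 559, 521 and 460 under caMKK6. Npc2, the soluble partner of NPC1, rose by 0.89 and 0.51 on the log2 scale (SE 0.06 each).

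Of the membrane proteins, Gpnmb, a glycoprotein of lysosomes and melanosomes that is raised under lysosomal stress, moved most. Gpnmb stood at 7.07, 7.47 and 9.64 FPKM in untreated caMEK1 MEFs and at 53.9, 68.5 and 76.0 FPKM at day 7 (log2 change 2.89, SE 0.22). In caMKK6 MEFs it went from 23.2, 13.4 and 20.9 FPKM to 73.4, 48.8 and 58.9 FPKM (log2 change 1.62, SE 0.22). Lamp1 and Lamp2, the main glycoproteins of the lysosomal membrane, were already high. Lamp1 went from 293, 302 and 336 FPKM to 467, 487 and 525 under caMEK1, a log2 change of 0.67 (SE 0.08), and Lamp2 rose by 0.59 (SE 0.06). Mcoln1, the calcium channel of the lysosomal membrane, went from 3.19, 2.95 and 3.47 FPKM to 8.24, 7.59 and 8.74 FPKM under caMEK1 and rose by 1.13 (SE 0.11). Under caMKK6 it rose by 0.50 (SE 0.11). Without the libraries that held the other transgene, which left replicate 1 as the only untreated library, the log2 change was 0.23.

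Of the glycosidases, Glb1 and Neu1 rose most under caMEK1. Glb1, the β-galactosidase, went from 12.4, 11.1 and 12.0 FPKM to 23.4, 20.4 and 22.6 FPKM at day 7 of caMEK1 and from 15.3, 15.1 and 12.8 FPKM to 25.8, 27.7 and 24 FPKM at day 7 of caMKK6. The log2 changes were 0.85 and 0.80 (SE 0.10 each), and day 7 and untreated libraries did not overlap. Neu1, a sialidase, rose by 1.01 and 0.54 (SE 0.11 each). Gusb, the β-glucuronidase, was at 21, 21.3 and 18.5 FPKM without doxycycline and at 19.5, 20.3 and 21.7 FPKM at day 7 of caMEK1, groups that overlapped, and it was not called. Fuca1, a fucosidase, and Man2b1, a mannosidase, were not called at day 7 either, with log2 changes between −0.15 and 0.09.

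**Figure D2:**
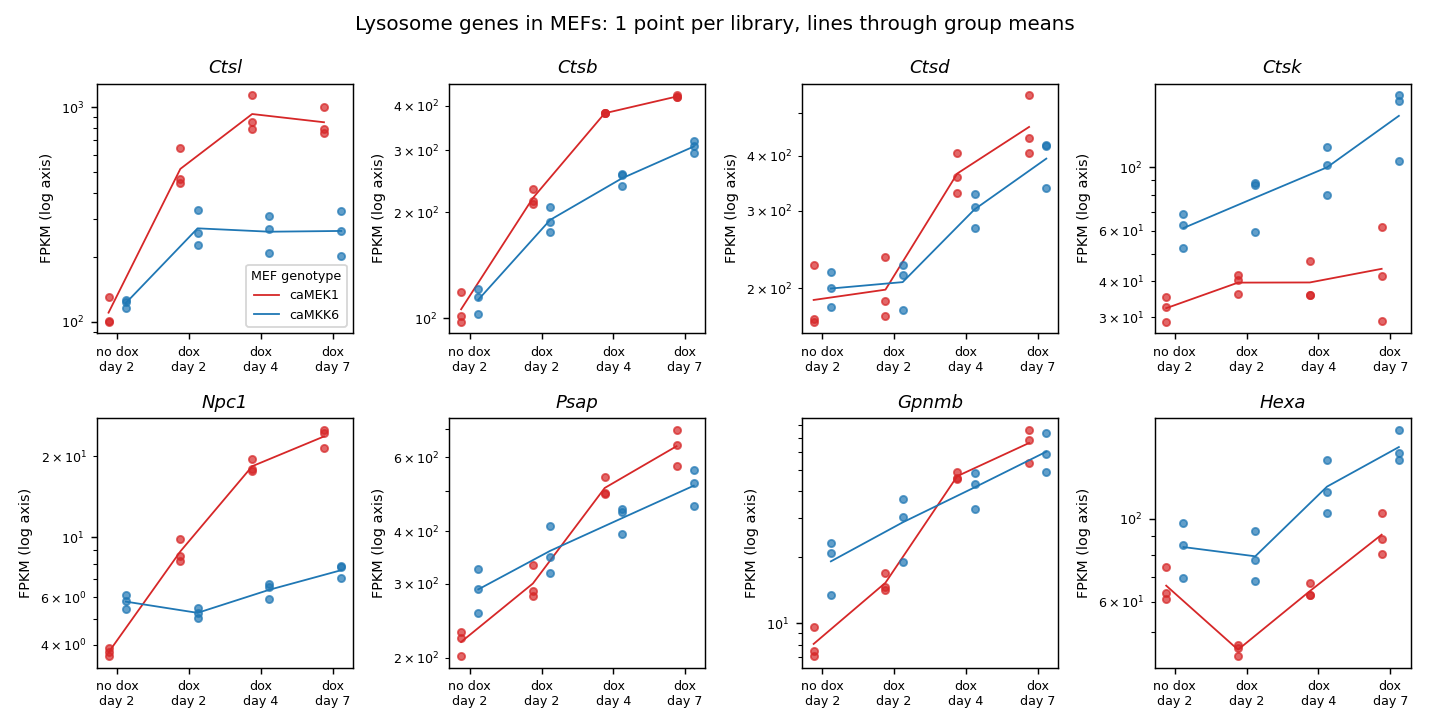
FPKM (log axis) of 8 lysosome genes in MEFs without doxycycline at day 2 and on doxycycline at days 2, 4 and 7; each point is a library and lines join group means, red for caMEK1 and blue for caMKK6. Ctsl jumps by day 2 under both kinases, climbs further to day 4 under caMEK1 and stays level under caMKK6, Ctsb and Gpnmb climb through day 7, Npc1 climbs steeply in caMEK1 MEFs to 21.5 to 25.0 FPKM and little in caMKK6 MEFs, and Hexa dips at day 2 of caMEK1 before it rises.

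At day 2 the shares of lysosome genes called up and down were nearer those of all genes than at day 7. At day 2 of caMEK1 8 lysosome genes rose and 8 fell, 22.9% each of those tested. Of all genes tested 39.3% were called there (19.5% up, 19.8% down). At day 2 of caMKK6 7 rose and 6 fell (20% and 17.1%), with 39.2% of all genes called (14.3% up, 24.8% down). After scaling to a common median the split at day 2 of caMKK6 was 9 up and 5 down. Hexa, a subunit of β-hexosaminidase, was at 63.4, 61.0 and 74.3 FPKM in untreated caMEK1 MEFs, at 42.9, 45.3 and 46.0 at day 2 and at 80.5, 88.1 and 103 at day 7, below and then above every untreated library. Ctsf fell by 0.59, Lipa by 0.54, Asah1 by 0.53, Smpd1 by 0.35, Gaa by 0.31, Ctsz by 0.30 and Lamp2 by 0.19 on the log2 scale at day 2 of caMEK1. Under caMKK6, Scarb2, the receptor that brings glucocerebrosidase to lysosomes, went from 16.6, 15.3 and 17 FPKM to 9.07, 6.74 and 11.1 at day 2 and stood at 15.4, 9.59 and 20.3 at day 7. It fell by 0.82 at day 2 and by 0.59 at day 4 and was not called at day 7. Asah1 and Lipa, which degrade ceramide and cholesterol esters, fell at day 2 under both kinases, and Ctsf did too. Without the libraries that held the other transgene, only replicate 1 was left in the untreated and in the day 2 caMKK6 group, so calls there were not compared. Leaving out untreated caMKK6 replicate 3 or day 2 replicate 2 gave 7 calls each.

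At day 4 the balance had turned. Under caMEK1 20 lysosome genes were up and 4 down, with 57.8% of all genes called (28.5% up, 29.3% down), and under caMKK6 19 were up and 1 down, with 44.8% called (17.1% up, 27.7% down). The genes down at day 4 of caMEK1 were Lipa, Smpd1, Ctsz and Ctsc. Ctsc, which activates the granule proteases of leukocytes, went from 6.67, 7.34 and 6.54 FPKM to 3.10, 3.49 and 3.61 at day 4 and 3.20, 4.48 and 4.30 at day 7. All caMEK1 libraries on doxycycline lay below the untreated ones, although Ctsc was called at day 4 only.

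Between days the movement was upward only. From day 2 to day 4 22 lysosome genes rose under caMEK1 (31.3% of all genes called, 16.2% up and 15.1% down) and 13 under caMKK6 (16.2% called, 7.39% up and 8.8% down), and none fell. From day 4 to day 7 8 rose under caMEK1 (3.6% called, 2.16% up and 1.45% down) and 4 under caMKK6 (3% called, 1.94% up and 1.06% down), and again none fell. MEF replicates of 1 genotype with the same number deviated together, and with that number as a block within genotype 19 genes rose from day 4 to day 7 under each kinase and 24 from day 2 to day 4 under caMKK6. The share of all genes called under that block is not given here, so these larger counts are not read as particular to lysosome genes. The unblocked counts from day 4 to day 7 rested on single libraries. Leaving out a caMEK1 library in turn gave 1 to 5 calls, the lowest without day 4 replicate 2 or day 7 replicate 2. Leaving out a caMKK6 library gave 0 without day 4 replicate 2 or day 7 replicate 3, 1 without day 4 replicate 1, 2 without day 7 replicate 1 and 9 without day 7 replicate 2. Without the libraries that held the other transgene, caMKK6 kept untreated replicate 1 and day 2 replicate 1 alone. Calls against those groups were therefore not compared. From day 4 to day 7 that setting gave 1 call.

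The change at day 7 was itself compared between the kinases. It was larger under caMEK1 for 11 genes and larger under caMKK6 for 3, with 37.8% of all genes called (23.3% and 14.5%). After median scaling the split was 9 and 5. The difference in log2 change was 2.03 for Npc1, 1.85 for Ctsl, 1.26 for Gpnmb, 0.91 for Ppt1 and 0.72 for Psap, each larger under caMEK1. It was −0.87 for Ctsk, −0.52 for Smpd1 and −0.42 for Ctsz, each larger under caMKK6. For the glycosidases other than Neu1, and for the 3 proton pump subunits, no difference was called. Their differences in log2 change ran from −0.44 for Hexa to 0.05 for Glb1 and from −0.22 for Atp6v0d1 to −0.05 for Atp6ap1 in the pump.

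Tfeb itself was low in MEFs, with 16 to 77 reads per library (median 38). It was at 0.918, 0.812 and 0.789 FPKM in untreated caMEK1 MEFs and at 0.504, 0.529 and 0.508 at day 7, and at 0.721, 0.537 and 0.770 FPKM in untreated caMKK6 MEFs and 0.597, 0.293 and 0.727 at day 7. No MEF library reached 1 FPKM, so it was below the filter. In the fit without a filter it fell under caMEK1 by 0.29 at day 2, 0.45 at day 4 and 0.28 at day 7 on the log2 scale (SE 0.08 each, limma adjusted p = 0.0113, 0.000192 and 0.00867). Under caMKK6 it fell by 0.36 at day 2 and 0.28 at day 4 (adjusted p = 0.00357 and 0.0131), and at day 7 the log2 change was −0.13 (adjusted p = 0.277). In caMEK1 MEFs every library on doxycycline lay below every untreated one, whereas in caMKK6 MEFs day 7 and untreated libraries overlapped.

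Some of these genes are also abundant in macrophages, whose markers moved in the same cultures. The summed level of 15 macrophage markers in replicates 1, 2 and 3 was 28.6, 51.8 and 46.5 FPKM in untreated caMEK1 MEFs and 107, 279.9 and 278.3 FPKM at day 7. In caMKK6 MEFs it was 152.7, 35.0 and 252.5 FPKM untreated and 680.1, 86.9 and 782.3 FPKM at day 7. Between 3 and 10 of the 15 markers reached 1 FPKM in a library, Lyz2 being the most abundant, and the Kupffer cell markers Clec4f and Vsig4 stayed at 0 to 0.146 FPKM. Ctss, a cathepsin of antigen-presenting cells, tracked the sum: it was at 35.3, 4.08 and 35.6 FPKM at day 7 of caMKK6 against 10.7, 2.40 and 15.3 FPKM untreated, and it was not called (log2 1.13, SE 0.71). Cd68, a macrophage lysosomal glycoprotein, was at 19.9, 7.10 and 22.4 FPKM against 7.63, 3.71 and 10.8 FPKM. These groups overlapped. Its call (log2 1.01, limma adjusted p = 0.039) was lost without untreated replicate 1 (adjusted p = 0.058) or 2 (0.21), or day 7 replicate 1 (0.14) or 3 (0.16), and under caMEK1 (1.07, adjusted p = 0.019) without untreated replicate 1 (0.068) or day 7 replicate 2 (0.072).

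Fits were also run with the replicate of lowest macrophage sums of each genotype alone, a setting chosen after seeing the data. With caMKK6 replicate 2 or caMEK1 replicate 1 alone, each group of that genotype held 1 library, so no counts of calls are drawn from these fits. The macrophage sums rose in these replicates too, from 35.0 to 86.9 FPKM and from 28.6 to 107 FPKM. The part of macrophages in the rise of lysosome genes was not tested.

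Other genes of the lysosome and of autophagy, taken from a list of 79, moved the same way in MEFs. Of 77 tested, 58 rose and 3 fell at day 7 of caMEK1 and 46 rose and none fell at day 7 of caMKK6, with medians of 0.61 and 0.35. Over all genes tested, 33.4% were up and 28.7% down at day 7 of caMEK1, and 16.8% up and 24% down at day 7 of caMKK6. Among the 15 other V-ATPase subunits and partners, 14 rose under each kinase. Atp6v1f went from a mean of 62.2 to 160 FPKM under caMEK1 and from 71.4 to 150 FPKM under caMKK6. Among the TFEB family and nutrient sensors, Rragd, a GTPase that recruits mTORC1 to the lysosome and is itself a target of this family, rose by 2.57 under caMEK1 and 1.58 under caMKK6 (SE 0.17 each). Flcn and Fnip1, which act on that GTPase, rose under both, by 0.86 and 0.91 under caMEK1 and by 0.25 and 0.22 under caMKK6. Tfe3, a relative of Tfeb, was at a mean of 5.94 FPKM untreated and 8.73 FPKM at day 7 of caMEK1 and rose by 0.49 (SE 0.08), whereas under caMKK6 it was at 6.17 FPKM untreated and 5.91 FPKM at day 7 and was not called. Of autophagy genes, Sqstm1, the cargo receptor p62, rose by 1.28 and 1.07, and Map1lc3b by 1.09 and 0.71. Sorting genes moved least: 4 of 8 rose under caMEK1 and 2 of 8 under caMKK6.

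In the liver, lysosome genes were called in both directions. Ctsk and Gpnmb were below the filter there, and of the 34 lysosome genes tested 3 rose and 10 fell in cells labelled caMEK1 mCherry against control mCherry cells on doxycycline, while 27.1% of all genes tested were called (10.7% up, 16.3% down). In caMKK6 mCherry cells 4 rose and 5 fell, with 38.2% of all genes called (28.9% up, 9.29% down). Cd63 and Ctsc rose under both kinases, and Lamp1 and Lamp2, the main lysosomal membrane glycoproteins, fell under both. These splits depended on scaling. For caMEK1 they were 4 up and 11 down after median scaling and 6 up and 3 down after quantile normalization. For caMKK6 they were 2 up and 11 down and 3 up and 5 down. The median log2 fold change of the lysosome genes was −0.32 against −0.04 over all genes for caMEK1 and −0.08 against 0.25 for caMKK6, and median scaling moved the all-gene median for caMKK6 to −0.02. Leaving out a control mCherry library gave 8 calls (replicate 1) or 6 (replicate 2) for caMEK1. For caMKK6 there were 4 without control mCherry replicate 2 and 3 without caMKK6 mCherry replicate 1.

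Cd63, a tetraspanin of late endosomes and exosomes, rose from near nothing under both kinases. It was at 0.131 and 0.155 FPKM in control mCherry cells, at 6.56, 8.03 and 8.09 FPKM in cells labelled caMEK1 mCherry and at 6.09 and 9.99 FPKM in caMKK6 mCherry cells. The log2 changes were 2.90 (SE 0.26, limma adjusted p = 4.2e-07) and 2.95 (SE 0.29, adjusted p = 2.86e-06). GFP cells of the same mice lay between, at 1.61, 2.20 and 1.65 FPKM for caMEK1 and 4.07 and 1.07 FPKM for caMKK6, and untreated GFP cells of all genotypes were at 0.0800 to 0.416 FPKM. Cd63 was higher in mCherry than in GFP cells of the same mice by 1.60 (SE 0.23) for caMEK1 and 1.44 (SE 0.29) for caMKK6. The latter call was lost without caMKK6 mCherry replicate 2 (limma adjusted p = 0.083) or GFP replicate 2 (0.06). The summed level of the 15 macrophage markers was 76.2 to 99.8 FPKM in caMEK1 and 36.4 to 94.3 FPKM in caMKK6 mCherry libraries. In control mCherry libraries it was 51.6 to 83.6 FPKM. Endothelial markers summed to 20.7 to 45.0 FPKM for caMEK1, 33.2 to 69.1 FPKM for caMKK6 and 49.8 to 52.4 FPKM for control in these libraries. The part of other cell types in the rise was not tested.

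Hexa, in liver, was higher under caMEK1 than in control or caMKK6 cells. It was at 53.0, 53.6 and 35.6 FPKM in cells labelled caMEK1 mCherry, at 13.1 and 13.7 FPKM in control mCherry cells and at 7.73 and 15.3 FPKM in caMKK6 mCherry cells. It rose by 1.72 (SE 0.26) against control and was 2.00 higher (SE 0.26, limma adjusted p = 3.34e-05) than in caMKK6 mCherry cells. All 3 caMEK1 libraries lay above every other liver library.

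Cathepsins went different ways in the liver. Ctsl rose under caMKK6, but unevenly between mice: it was at 1302 FPKM in mCherry and 823 FPKM in GFP cells of replicate 1, at 276 and 168 FPKM in replicate 2, and at 119 and 138 FPKM in control mCherry cells. The rise in mCherry cells was 2.22 (SE 0.57, limma adjusted p = 0.0072). Without the mCherry library of replicate 1 it was 1.10 and no longer called (adjusted p = 0.15). Cells labelled caMEK1 mCherry held Ctsl at 96.0, 150 and 106 FPKM, which overlapped control. Ctsc was higher under both kinases, at 46.6, 32.9 and 33.5 FPKM for caMEK1 and 40.3 and 25.7 FPKM for caMKK6 against 15.7 and 12.5 FPKM, and rose by 1.34 and 1.14. Both calls were lost without control mCherry replicate 2 (adjusted p = 0.069 and 0.13), and that of caMKK6 also without caMKK6 mCherry replicate 1 (0.17) or after median scaling (0.13). Ctsb fell in the cells labelled caMEK1 mCherry, from 100 and 117 FPKM in control to 28.9, 32.7 and 53.3 FPKM, by 1.52 (SE 0.48, adjusted p = 0.024). It was not called with control mCherry replicate 1 (0.095) or 2 (0.14), or caMEK1 mCherry replicate 1 (0.078) or 2 (0.068), left out, or after quantile normalization (0.16).

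Membrane glycoproteins and a lipase were lower under both kinases. Lamp2 was at 73.2 and 78.0 FPKM in control mCherry cells, at 30.2, 31.3 and 35.9 FPKM in cells labelled caMEK1 mCherry and at 33.0 and 50.5 FPKM in caMKK6 mCherry cells, and it fell by 1.20 and 0.87. The caMKK6 call was lost without control mCherry replicate 2 (limma adjusted p = 0.078) or caMKK6 mCherry replicate 1 (0.15). Lamp1 went from 278 and 288 FPKM in control to 138, 145 and 149 FPKM under caMEK1 and 156 and 207 FPKM under caMKK6, and fell by 0.97 and 0.65, but after quantile normalization the caMEK1 change was 0.02. For caMKK6 the Lamp1 call was lost without any of control mCherry replicates 1 and 2 and caMKK6 mCherry replicate 1 (adjusted p = 0.059, 0.092 and 0.16). Lipa, the acid lipase, was at 37.4 and 35.1 FPKM in control, 13.5, 12.4 and 13.7 FPKM under caMEK1 and 7.47 and 25.8 FPKM under caMKK6, and fell by 1.39 and 1.30. Its caMEK1 call was lost without control mCherry replicate 1 (0.14) or 2 (0.11) or caMEK1 mCherry replicate 1 (0.053) or 2 (0.066), or after quantile normalization (0.092), and its caMKK6 call without control mCherry replicate 1 (0.13) or 2 (0.13) or caMKK6 mCherry replicate 1 (0.52). Scarb2 fell in the cells labelled caMEK1 mCherry, from 50.1 and 52.1 FPKM to 18.5, 17.4 and 25.1 FPKM (log2 −1.31, SE 0.22), while caMKK6 mCherry cells held 45.3 and 41.4 FPKM. The difference between the kinases was −1.07 (SE 0.22, adjusted p = 0.0017), and −0.65 after median scaling, where it was not called (0.054).

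**Figure D3:**
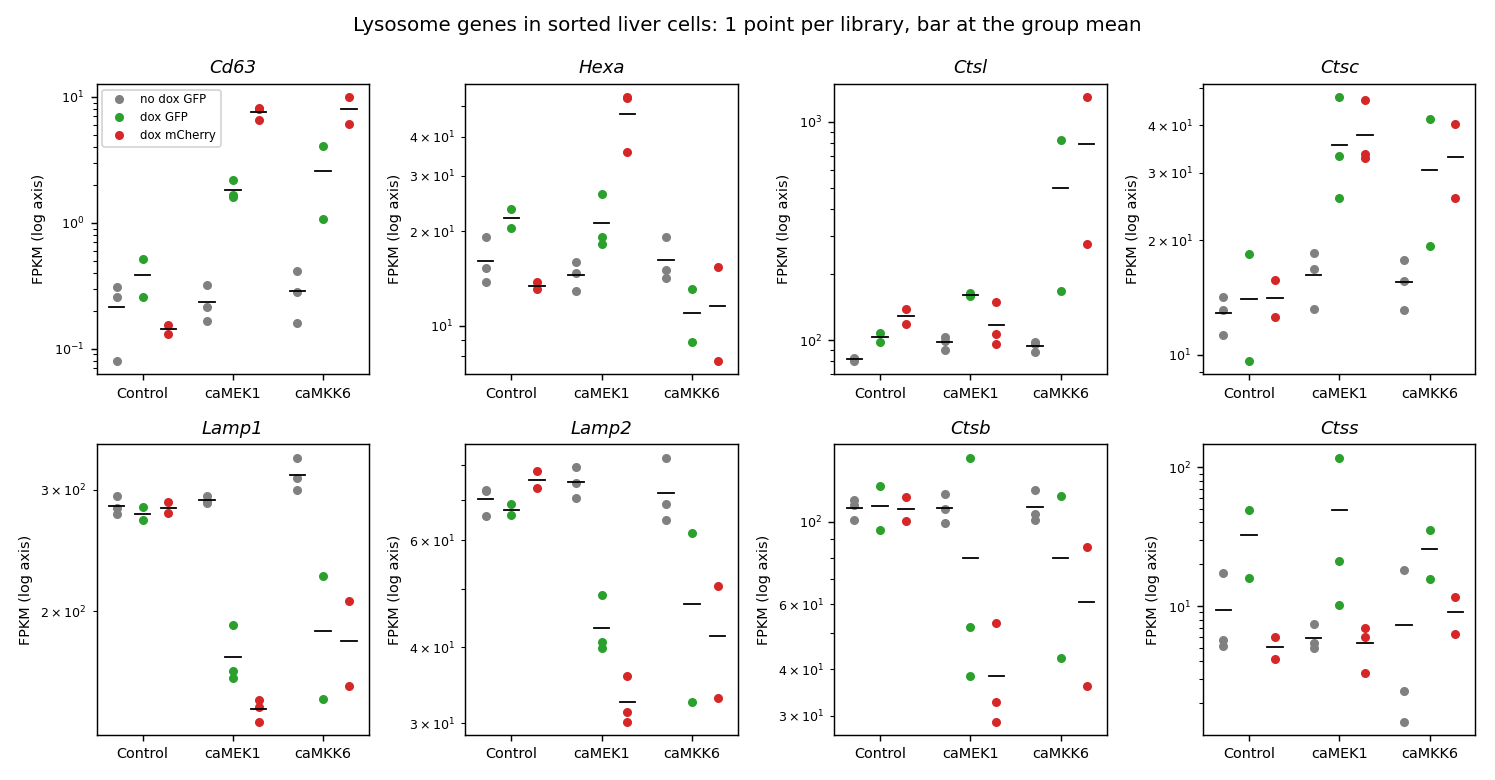
FPKM (log axis) of 8 lysosome genes in sorted liver cells of control, caMEK1 and caMKK6 mice; each point is a library, bars are group means, and colours give untreated GFP (grey), GFP on doxycycline (green) and mCherry on doxycycline (red). Cd63 is high in mCherry cells of both kinases, Hexa in those labelled caMEK1, and Lamp1 and Lamp2 are lower on doxycycline in both colours of both kinase genotypes.

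Surrounding GFP cells in the liver also shifted. Against untreated GFP cells, 3 lysosome genes rose and 9 fell in caMEK1 mice, with 38.5% of all genes called (6.46% up, 32% down), and 2 rose and 3 fell in caMKK6 mice, with 19% called (5.21% up, 13.8% down). After median scaling the splits were 7 up and 3 down and 2 up and 1 down, and after quantile normalization 11 up and 1 down and 4 up and none down. In caMEK1 GFP cells the median of all genes was itself −0.25 and that of the lysosome genes −0.24, and median scaling brought the former to −0.04. Lipa went from 45.6, 43.9 and 38.7 FPKM untreated to 15.1, 11.9 and 18.1 FPKM in caMEK1 GFP cells and fell by 1.46 (SE 0.39). Lamp1, Lamp2, Scarb2, Atp6v0d1, Smpd1 and Fuca1 also fell, by 0.76, 0.79, 0.66, 0.64, 0.54 and 0.38, but each was above 0 after quantile normalization, at 0.05, 0.02, 0.06, 0.04, 0.03 and 0.20. In caMKK6 GFP cells Ctsl and Cd63 rose by 1.97 and 1.34 and Lipa, Lamp1 and Lamp2 fell by 1.30, 0.78 and 0.66. Without GFP replicate 1 of that group none of the 5 was called, and leaving out untreated replicate 1 or 2 gave 3 calls each.

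Ctss was the gene with the largest rise in caMEK1 GFP cells, and it moved with macrophage markers. It was at 10.2, 21.1 and 117 FPKM against 5.40, 5.01 and 7.39 FPKM untreated (log2 2.17, SE 0.77, limma adjusted p = 0.035). The summed level of the 15 macrophage markers was 98.9, 190.8 and 845.1 FPKM in the same libraries against 73.4, 64.4 and 85.8 FPKM untreated, and 5 of the 15 markers rose. Endothelial markers summed to 23.9 to 173.4 FPKM against 22.6 to 38.4 FPKM. Without replicate 3 on doxycycline Ctss was not called (log2 1.20, adjusted p = 0.21, chosen after seeing the data), nor without any untreated replicate (0.083, 0.09 and 0.057) or GFP replicate 2 (0.051). Against control GFP cells on doxycycline, which held 16.0 and 49.3 FPKM, the change was 0.07. Without replicate 3, 2 lysosome genes rose and 12 fell in the GFP cells.

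Within the same mice, few lysosome genes were called between the colours without the animal as a block, and more with it. In caMEK1 liver 2 rose in mCherry against GFP cells and none fell (4.71% of all genes called, 3.75% up and 0.955% down), Cd63 and Hexa, and in caMKK6 liver 2 rose, Cd63 and Atp6v1h (4.28% called, 3.99% up and 0.289% down). With the animal as a block these became 2 up and 5 down for caMEK1 and 4 up and 1 down for caMKK6. Median scaling and quantile normalization each gave 2 up and 2 down for caMEK1, and 1 up, or 1 up and 1 down, for caMKK6. Counts moved with single libraries. For caMEK1 they were 1 without mCherry replicate 2 and 4 without mCherry replicate 3 or GFP replicate 1, and for caMKK6 0 without mCherry replicate 2, 1 without GFP replicate 2 and 6 without GFP replicate 1.

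Between the kinases, mCherry liver cells differed in 8 lysosome genes, 1 higher and 7 lower in those labelled caMEK1, with 31.7% of all genes called (4.52% higher, 27.2% lower). After median scaling the split was 4 and 1, and after quantile normalization 5 and 1. The all-gene median of this comparison was −0.31 as deposited. Hexa was higher, and Ctsl, Scarb2, Npc1, Ctsf, Atp6v1h, Smpd1 and Atp6v0d1 were lower, the last at 0.02 after either scaling. Npc1 was at 13, 16.9 and 16.9 FPKM against 29.9 and 27.0 FPKM in caMKK6 mCherry cells, groups that did not overlap, and its call was lost after median scaling (log2 −0.42, limma adjusted p = 0.36), with the animal as a block (0.052) and without any one library of the 5. Leaving out caMEK1 mCherry replicate 1 or caMKK6 mCherry replicate 1 gave 5 calls, and leaving out caMKK6 mCherry replicate 2 gave 4. In control liver, doxycycline alone gave 0 calls by limma among 34 lysosome genes (0.0868% of all genes called, 0.0482% up and 0.0386% down), with 1 at an unadjusted p below 0.05 and 0 by voom.

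In the colon, Tfeb and every member but Ctsk and Gpnmb was tested, and changes were again mixed. In caMEK1 mCherry cells 3 rose and 6 fell against control mCherry cells, with 21.5% of all genes called (9.54% up, 12% down), and in caMKK6 mCherry cells 5 rose and 5 fell, with 20.8% called (11.1% up, 9.7% down). After median scaling the caMEK1 split was 3 and 3. The median log2 fold change of the lysosome genes was −0.17 against −0.14 over all genes for caMEK1 and −0.08 against −0.06 for caMKK6. The control mice differed from each other: Ctss, for one, was at 199 FPKM in mCherry replicate 1 and 82.8 FPKM in replicate 2. For caMEK1, 4 were called without control mCherry replicate 2 and 2 without caMEK1 mCherry replicate 2. For caMKK6, 4 were called without control mCherry replicate 1 and 6 without replicate 2.

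Under caMEK1 the genes that rose were Npc1, Ctsl and Neu1. Npc1 was at 14.1 and 21.1 FPKM in caMEK1 mCherry cells, 5.93 and 5.87 FPKM in control mCherry cells and 4.95, 5.08 and 5.41 FPKM in caMKK6 mCherry cells. It rose by 1.41 (SE 0.22, limma adjusted p = 0.000225), by 1.34 against GFP cells of the same mice, and was 1.57 higher than in caMKK6 mCherry cells. The caMEK1 mCherry libraries lay above all other colon libraries, and Npc1 was thus called up in caMEK1 cells of the colon as in caMEK1 MEFs. Ctsl was at 23.1 and 21.4 FPKM under caMEK1 and 32.7, 30.2 and 26.2 FPKM under caMKK6, against 12.5 and 7.09 FPKM in control, and rose by 1.15 and 1.55. The caMEK1 call was lost without control mCherry replicate 2 (adjusted p = 0.13) or caMEK1 mCherry replicate 2 (0.054). Neu1 was at 79.3 and 72.4 FPKM against 30.7 and 21.6 FPKM and rose by 1.52 (SE 0.41), a call lost without control mCherry replicate 2 (0.11) or caMEK1 mCherry replicate 1 (0.064) or 2 (0.076).

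Lamp2 was the gene with the largest fall under caMEK1. It was at 8.02 and 5.42 FPKM against 16.8 and 18.4 FPKM in control mCherry cells and 16.5, 15.7 and 19.0 FPKM in caMKK6 mCherry cells, and fell by 1.29 (SE 0.21). It was 1.24 lower than in caMKK6 mCherry cells (limma adjusted p = 0.000203), and the groups did not overlap. The glycosidases Hexa, Glb1 and Man2b1 and the peptidases Ctsa and Tpp1 fell by 0.87, 0.73, 0.68, 0.82 and 0.58. None of these 5 was called without caMEK1 mCherry replicate 2, which was the lower of the pair for each. Glb1, for example, was at 29.1 and 16.6 FPKM against 34.0 and 40.8 FPKM.

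Under caMKK6 the gene that stood out was Gusb. It was at 83.1, 53.5 and 70.1 FPKM in caMKK6 mCherry cells, at 25.9, 15.3 and 16.1 FPKM in GFP cells of the same mice, at 7.93 and 13.9 FPKM in control mCherry cells and at 10.6 FPKM in both caMEK1 mCherry libraries. It rose by 2.58 against control (SE 0.27, limma adjusted p = 5.77e-06) and by 1.81 against GFP cells (SE 0.24), and was 2.57 lower in caMEK1 than in caMKK6 mCherry cells. The 3 caMKK6 mCherry libraries lay above all other colon libraries. Cd68 was at 4.65, 1.55 and 2.91 FPKM against 0.907 and 0.614 FPKM and rose by 1.13 (SE 0.29). Its call was lost without control mCherry replicate 2 (adjusted p = 0.078). Ctsz and Ctsh, an exopeptidase and an aminopeptidase, rose by 0.85 and 0.60, but against untreated GFP cells of their genotype the change of Ctsz was −0.04. Macrophage markers were low in these libraries, with 1 or 2 of 15 at 1 FPKM and sums of 2.21 to 9.17 FPKM, against 1 of 15 and 2.07 to 4.68 FPKM in control mCherry cells.

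Tfeb, the master regulator, was measurable in the colon and fell under caMKK6. It was at 2.77, 2.39 and 1.93 FPKM in caMKK6 mCherry cells, 5.86 and 4.25 FPKM in control mCherry cells and 3.59, 4.70 and 4.26 FPKM in GFP cells of the same mice. It fell by 0.84 against control (SE 0.18, limma adjusted p = 0.0038) and by 0.63 against GFP cells (SE 0.17). The first call was lost without control mCherry replicate 1 (adjusted p = 0.077), and the second without caMKK6 mCherry replicate 3 (0.07). Ppt1, Smpd1, Gaa and Lipa, a thioesterase, a sphingomyelinase, a glucosidase and a lipase, fell as well. Ppt1 was at 8.84, 6.52 and 6.00 FPKM against 13.2 and 13.6 FPKM (log2 −0.84, SE 0.16), and all 3 libraries lay below the control ones. Lipa was at 2.39, 1.22 and 1.28 FPKM against 3.90 and 3.72 FPKM (log2 −0.90, SE 0.28), a call lost without control mCherry replicate 1 (0.12) or 2 (0.091) or caMKK6 mCherry replicate 2 (0.083) or 3 (0.082).

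**Figure D4:**
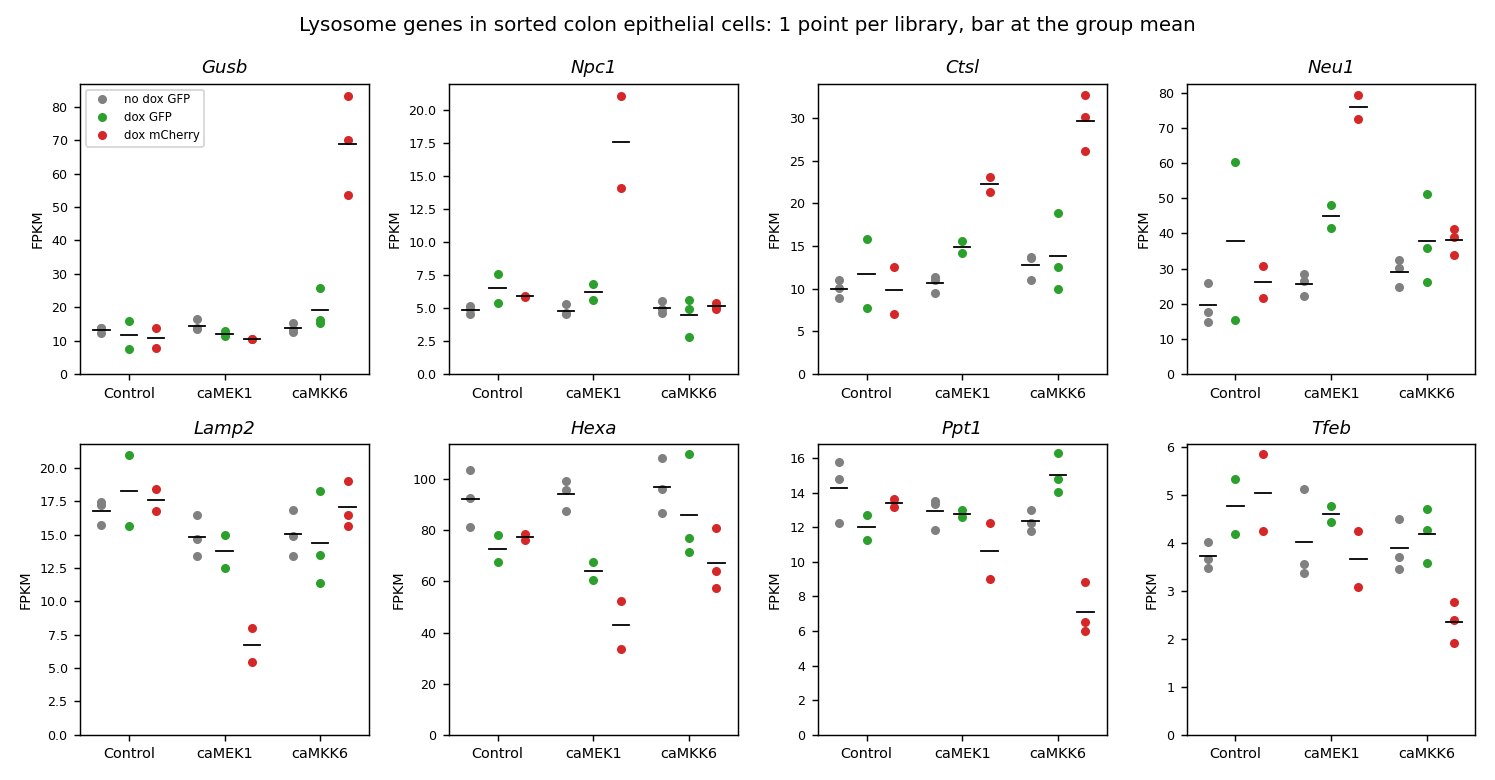
FPKM (linear axis from 0) of 8 lysosome genes in sorted colon epithelial cells of control, caMEK1 and caMKK6 mice; each point is a library, bars are group means, and colours give untreated GFP (grey), GFP on doxycycline (green) and mCherry on doxycycline (red). Gusb reaches 53.5 to 83.1 FPKM in caMKK6 mCherry cells alone, Npc1 14.1 to 21.1 FPKM in caMEK1 mCherry cells alone, and Ctsl is raised in mCherry cells of both.

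Within the same colons, lysosome genes were called in both directions between mCherry and GFP cells. For caMEK1 1 rose and 5 fell, with 13.4% of all genes called (5.71% up, 7.72% down), and for caMKK6 3 rose and 5 fell, with 21.3% called (8.24% up, 13.1% down). Of the 34 tested, 2.94% were up and 14.7% down for caMEK1, and 8.82% up and 14.7% down for caMKK6, the latter near the shares of all genes. With the animal as a block these became 4 up and 13 down, and 6 up and 14 down. The share of all genes called under that block is not given here. Median scaling gave 1 up and 2 down for caMEK1, and quantile normalization 5 up and 5 down for caMKK6. Gaa, the glucosidase that degrades glycogen, was lower in mCherry cells of both kinases: 12.5 and 8.27 against 24.2 and 18.6 FPKM for caMEK1, and 11.8, 8.52 and 8.02 against 15.7, 23.3 and 22.0 FPKM for caMKK6. It fell by 0.99 and 1.03 (limma adjusted p = 0.011 and 0.0015). Npc2 was also lower, at 35.7 and 25.1 against 64.7 and 61.2 FPKM and at 32.4, 29.4 and 19.6 against 68.7, 49.7 and 41.5 FPKM. The caMEK1 count was 10 without mCherry replicate 1, 1 without mCherry replicate 2, 2 without GFP replicate 1 and 3 without GFP replicate 2, and the calls of Gaa and Npc2 were lost without mCherry replicate 2 (adjusted p = 0.24 and 0.4) or GFP replicate 1 (0.15 and 0.21). The call of Npc2 was also lost without GFP replicate 2 of caMEK1 (0.12), and under caMKK6 without mCherry replicate 3 (0.11) or GFP replicate 1 (0.07). Macrophage markers were not level between the colours. Their summed level in caMKK6 GFP replicates 1, 2 and 3 was 59.96, 1.365 and 5.05 FPKM, with 10, 1 and 1 of 15 markers at 1 FPKM, against 9.17, 2.21 and 4.46 FPKM in mCherry cells. In caMEK1 it was 17.2 and 8.02 FPKM in GFP and 2.29 and 0.748 FPKM in mCherry cells. Endothelial markers summed to 10.6 FPKM in caMKK6 GFP replicate 2 and to at most 0.335 FPKM in the other libraries of these groups. With caMKK6 replicates 2 and 3 alone, chosen after seeing the data, 5 lysosome genes were up and 5 down, Gaa was still called (log2 −1.35, adjusted p = 0.00039) and Npc2 was not (log2 −0.89, adjusted p = 0.053). The part of these cells in the results was not tested.

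GFP cells of the colon gave 0 calls by limma against untreated GFP cells for either kinase. All genes called were 1.33% for caMEK1 (0.91% up, 0.425% down) and 2.6% for caMKK6 (1.31% up, 1.29% down). At an unadjusted p below 0.05 there were 5 and 1 lysosome genes, and voom called 0 and 0. Doxycycline alone in control mice also gave 0 (0% of all genes called), with 1 at an unadjusted p below 0.05 and 0 by voom, although 4 were called without control GFP replicate 2 on doxycycline. Whether liver and colon GFP cells differ was not tested. Between the kinases, 3 lysosome genes were higher and 8 lower in caMEK1 than in caMKK6 mCherry cells of the colon (20.7% of all genes called, 8.56% higher and 12.1% lower), and 4 and 5 after median scaling. Without caMEK1 mCherry replicate 2 there were 5 calls.

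**Figure D5:**
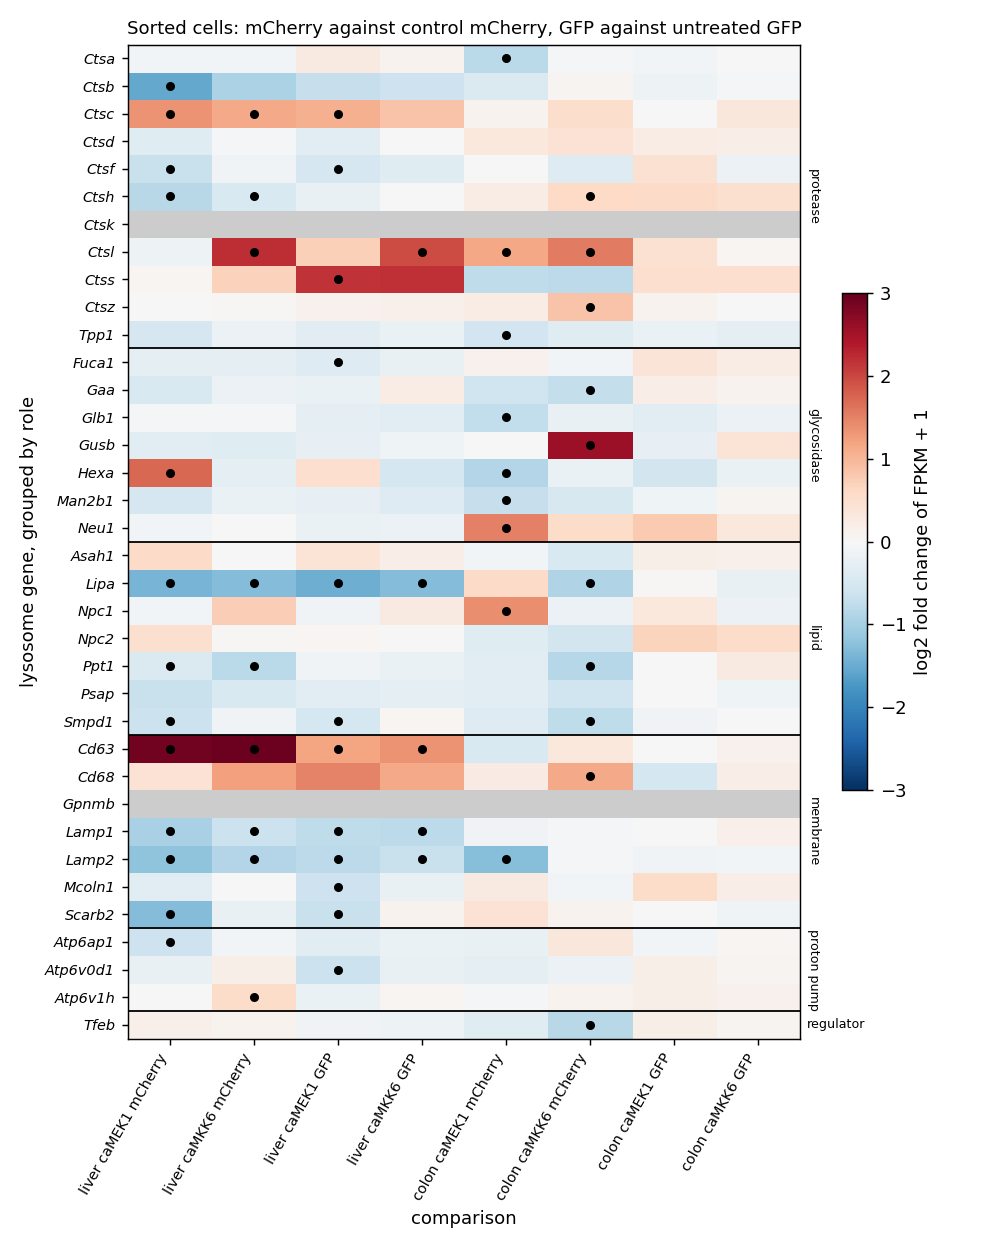
Log2 fold change of FPKM + 1 (colour) of the lysosome genes in mCherry cells against control mCherry cells and in GFP cells on doxycycline against untreated GFP cells, for liver (left 4 columns) and colon (right 4 columns); a dot marks a call at adjusted p below 0.05 and grey a gene not tested. The liver columns carry dots in both colours of cells, the 2 colon GFP columns carry none, and no role group is red throughout.

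The other genes of the lysosome were also mixed in sorted cells. In liver, where 10.7% of all genes were up and 16.3% down for caMEK1 and 28.9% up and 9.29% down for caMKK6, 8 of 76 rose and 19 fell in cells labelled caMEK1 mCherry, and 14 rose and 10 fell under caMKK6. In colon, where the shares of all genes were 9.54% and 12% for caMEK1 and 11.1% and 9.7% for caMKK6, 6 of 75 rose and 18 fell under caMEK1, and 11 rose and 17 fell under caMKK6. Among 25 other hydrolases and activators tested in each tissue, 3 rose and 8 fell in liver under caMEK1, 1 rose and 7 fell in liver under caMKK6, none rose and 10 fell in colon under caMEK1, and 1 rose and 11 fell in colon under caMKK6. The proteases among the 36 genes did not share that direction under caMKK6, with 2 up and 1 down of 10 tested in liver and 3 up and none down in colon. The lipid handlers among them did under caMKK6, with none up and 2 down of 7 in liver and none up and 3 down in colon. Of 7 glycosidases none was called in liver under caMKK6, and 1 rose and 1 fell in colon. Under caMEK1 in liver, 1 protease rose and 3 fell, no lipid handler rose and 3 fell, and 1 glycosidase rose and none fell. In colon under caMEK1, 1 protease rose and 2 fell, 1 lipid handler rose and none fell, and 1 glycosidase rose and 3 fell. Gm2a, an activator protein of ganglioside breakdown, fell by 2.38 under caMEK1 and by 2.23 under caMKK6, from a mean of 12.9 FPKM in control mCherry cells to 1.65 and 1.94 FPKM. Of the other V-ATPase subunits and partners, 4 of 15 rose and 2 fell in liver under caMEK1 and 5 rose and none fell under caMKK6, and in colon 3 of 14 rose and 1 fell under caMEK1 and 4 rose and none fell under caMKK6. Of the 3 pump subunits among the 36 genes, 1 fell in liver under caMEK1, 1 rose there under caMKK6 and none was called in colon. Atp6v1g1, a V-ATPase subunit chosen after its values were seen, rose in mCherry cells of both tissues and both kinases, by 1.22 and 1.59 in liver and by 0.74 and 0.86 in colon for caMEK1 and caMKK6, as it had at day 7 in MEFs, by 0.83 and 0.82. Atg9b, which carries membrane for autophagosomes, went from a mean of 0.0712 FPKM in control colon to 17.7 FPKM under caMEK1 and 8.13 FPKM under caMKK6.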

How the data were processed

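FPKM values of 21863 entries in 70 libraries were deposited by the authors in 1 table; cutadapt 1.12, STAR 2 and the mm10 build are named per the submitters' processing notes, and the counting tool and annotation are not given in the sources used here. With GENCODE M21 exon lengths for 21191 entries, 100% of values under 1000 reads came out as whole reads within 0.02, which gave the depths and the input for voom.

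FPKM values were tested as log2(FPKM + 1) with limma 3.58.1 (R 4.3.3; linear model, moderated by trend, two-sided), 1 fit per tissue over all its groups, keeping genes that reached 1 FPKM in 3 MEF libraries, or in 2 libraries of liver or colon. That left 11347 genes in MEFs, 10371 in liver and 11542 in colon, with 16, 14 and 14 residual degrees of freedom. Benjamini-Hochberg adjustment ran over all genes of a comparison (threshold 0.05), and not across the 27 comparisons. The fit was tested on simulated data. Tables and plots used Python 3.11.15, numpy 2.4.6, pandas 2.3.3 and matplotlib 3.10.9.

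The genes and lists were chosen with earlier results of these data known. Values per library were given for the 8 genes with the largest change at day 7 of either kinase in MEFs, the 4 called with the largest change in each liver or colon comparison, Tfeb, genes that fell where most rose, and others that the account turns on, chosen after their values were seen; from the list of 79 other lysosome genes, up to 4 called per subgroup were eligible. Atp6v1g1, Flcn, Fnip1 and Tfe3 were also chosen after their values were seen.

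Same-numbered MEF libraries of a genotype deviated together (36 of 36 pairs over 0.1, median correlation 0.485), and those of different genotypes did not (median −0.07), so the replicate block was nested in genotype. Both colours of an animal were paired likewise (7 pairs at 0.462 to 0.817 in liver and 7 at 0.396 to 0.707 in colon). Alternatives were a pseudocount of 0.1, no filter, median scaling, quantile normalization, voom, replicate blocks, another comparator, libraries without the other transgene, and each library left out. Shares of all genes called are given for the fit described above only. Counts of lysosome genes under an alternative are therefore not set against all genes.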

Additional observations from a re-analysis of the deposited data

Results flagged for a closer look

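In MEFs the change at day 7 differed between the kinases by limma's test of the difference for 14 lysosome genes. The log2 change under caMEK1 minus that under caMKK6 was 2.03 for Npc1, 1.85 for Ctsl, 1.26 for Gpnmb, 0.91 for Ppt1, 0.72 for Psap, 0.67 for Tpp1, 0.63 for Mcoln1, 0.56 for Ctsb, 0.47 for Neu1, 0.38 for Npc2 and 0.25 for Lamp2. It was −0.42 for Ctsz, −0.52 for Smpd1 and −0.87 for Ctsk.

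In liver, mCherry cells labelled caMEK1 differed from caMKK6 mCherry cells by 2.00 for Hexa, −0.40 for Atp6v0d1, −0.54 for Smpd1, −0.55 for Atp6v1h, −0.57 for Ctsf, −0.84 for Npc1, −1.07 for Scarb2 and −2.37 for Ctsl. In colon the same difference was 1.57 for Npc1, 1.47 for Lipa, 0.52 for Ppt1, −0.54 for Ctsb, −0.56 for Atp6ap1, −0.66 for Hexa, −0.76 for Cd63, −0.77 for Ctsa, −0.89 for Cd68, −1.24 for Lamp2 and −2.57 for Gusb.

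Against control mCherry cells, Hexa was up in liver (1.72) and down in colon (−0.87) under caMEK1, and Ctsh was down in liver (−0.47) and up in colon (0.60) under caMKK6. The difference between the tissues was not tested.

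The MEK1 transgene was listed in 5 caMKK6 MEF libraries, at 11 FPKM and 16 FPKM in untreated replicates 2 and 3, at 16.5 FPKM and 12.2 FPKM in day 2 replicates 2 and 3, and at 14.9 FPKM in day 4 replicate 2. The other caMKK6 MEF libraries listed it at 0. Single outlying libraries were not tested within the groups of 2 or 3 libraries.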

How the results depend on the processing

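At day 7 in MEFs all calls stayed upward with each library left out, 23 to 24 for caMEK1 (24 with all) and 23 to 29 for caMKK6 (25). Leaving out the libraries that held the other transgene kept only replicate 1 of untreated and of day 2 caMKK6 MEFs. Calls against those groups then rest on 1 library and are not set against the fit with all. From day 4 to 7 that setting gave 1 call for caMKK6 (4 with all). From day 4 to 7, median scaling gave 3 for caMEK1 and 2 for caMKK6, the replicate block within genotype 19 and 19, and the plain replicate block 9 for caMKK6; the block within genotype gave 24 for caMKK6 from day 2 to 4. The settings with caMEK1 replicate 1 or caMKK6 replicate 2 alone, chosen after seeing the data, left 1 library per group of that genotype and are not counted here.

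Within liver mice, caMEK1 mCherry against GFP gave 4 by median scaling, 4 by quantile normalization and 7 with the animal as replicate block, and caMKK6 gave 1 with a pseudocount of 0.1, 1 by median scaling and 5 with the block. Liver caMKK6 GFP against untreated gave 3 with no filter, 3 by median scaling, 3 by voom and 3 with the other comparator, and the kinases compared in liver gave 5 by median scaling. In colon, mCherry against GFP gave 3 by median scaling and 17 with the block for caMEK1 and 20 with the block for caMKK6.

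Leaving out each library gave 1 to 5 calls for caMEK1 from day 4 to 7, 7 to 13 for caMKK6 at day 2 and 0 to 9 from day 4 to 7. In liver it gave 6 to 11 and 3 to 8 for mCherry against control (caMEK1, caMKK6), 0 to 7 for caMKK6 GFP against untreated, 1 to 4 and 0 to 6 for mCherry against GFP, and 4 to 9 between kinases. In colon it gave 2 to 10 and 4 to 9 for mCherry against control, 1 to 10 for caMEK1 mCherry against GFP, 5 to 10 between kinases and 0 to 4 for doxycycline in controls. Where an arm was left with 1 library, that library was assumed to vary like the other groups.

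Directions reversed by quantile normalization were those of Lamp1 in liver caMEK1 mCherry cells (0.020) and, in caMEK1 GFP cells, of Atp6v0d1 (0.043), Lamp2 (0.016), Fuca1 (0.20), Scarb2 (0.064), Lamp1 (0.045) and Smpd1 (0.034). Atp6v0d1 between kinases in liver became 0.020 by median scaling and 0.019 by quantile normalization, and Ctsz in colon caMKK6 mCherry cells became −0.036 against untreated GFP cells. Of single-gene values, 11368 kept their direction and side of the threshold, 599 lost a call, 326 gained one and 10 reversed; the cause was not tested. Precision was limited by 2 or 3 libraries per group, and Tfeb in MEFs by its level.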
